A study of Mus musculus with 4 samples.

Results

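Solute carriers are membrane proteins that move amino acids, sugars, ions, metals, lipids and other small molecules across cell and organelle membranes. Their gene symbols give the family number first and the member second (Slc7a6 is member 6 of family 7), and the Slco genes are the organic anion carriers. The set described here was chosen by name, not by measured value: every gene with a platform symbol of these 2 forms and a value on all 4 arrays. It held 182 genes out of 9153 named genes, from 47 families and measured by 234 probes, with 140 genes resting on 1 probe each. A further 8 genes of this form (Slc14a2, Slc1a5, Slc22a18, Slc22a5, Slc25a1, Slc2a4, Slc8a1 and Slc8a3) lacked a value on an array and were not used here. Slc26a4 was left out because it helped to settle the direction of the ratios, and its own log2 ratio was 4.24 ± 0.51 (SD, n = 4).

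Lung RNA came from the inbred mouse strain BALB/cJ, common in work on allergic airways. Challenged mice had been sensitized to the egg white protein ovalbumin, a model allergen, and then challenged with it, in particle-free air or in air carrying UCP, which the labels do not spell out. On each of 4 dual-colour arrays this lung RNA was set against a pool made from 6 controls that had not been sensitized and breathed the same air. Each air had 2 arrays: array 1 carried the challenged lung in Cy5, and array 2 carried it in Cy3. The age of the mice is not given in the sources used here, and sensitization and challenge cannot be told apart because the controls received neither.

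Every value below is a log2 ratio of challenged lung over control pool, so that 0 means equal and 1 means 2-fold higher. Values for a gene are given in the order particle-free air array 1, particle-free air array 2, UCP air array 1 and UCP air array 2. Whether both arrays for one air used separate animals or the same RNA with exchanged dyes is not in the labels. The p-values therefore reflect array-to-array spread alone, possibly technical, and leave out the spread among control animals. The relative direction of the arrays was worked out from the values, while the overall sign, challenged over control, is only likely. Over all 18160 probes with complete values, the correlation between arrays ran from 0.07 to 0.18 (Pearson) and from 0.12 to 0.30 (Spearman), and its highest Spearman values belonged to the pair of Cy3 arrays and the pair of Cy5 arrays, at 0.30 and 0.28. The RNA comes from whole lung, so that fewer cells of a type and less RNA per cell cannot be told apart.

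In a lung, carriers of amino acids, zinc and iron serve both the epithelium and the leukocytes that enter it, chloride and bicarbonate carriers set the composition of the airway surface liquid, and carriers of the inner mitochondrial membrane feed respiration. Amino acid exchangers of family 7 reach the cell surface as light subunits bound to a heavy subunit of family 3. Zinc carriers of family 30 move zinc out of the cytosol, into organelles or out of the cell, and those of family 39 move it into the cytosol.

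Promoter windows were looked up for the solute carriers in RefSeq (build GRCm38.p6, 250 bases before to 50 bases after a start), where 140 of the 182 genes matched. They are shown for members of the 10 highest genes whose sequence before the start held a stress response motif, because these genes are the ones the later paragraphs describe. The motifs were searched on both strands and none of the matches printed here overlaps another. A carrier can have several windows. TGACGTG, a motif of the endoplasmic reticulum stress response, lay in 2.01% of all 32851 windows and in 3.65% of the carriers' 192 windows. The carrier windows with it belonged to 6 of the 140 carriers, including Slc7a6 and Slc30a5 among the 10 highest. TGATGNAA is the composite element bound by C/EBP and ATF factors in amino acid shortage. It lay in 3.97% of all windows and in 5.21% of the carriers' windows, from 9 carriers including Slc17a1. The windows of Slc7a6 (chr8:106168671-106168920, plus strand) and Slc17a1 (chr13:23868768-23869017, plus strand) are printed 5′ to 3′ up to the base before the start, with the match in capitals.
Slc7a6: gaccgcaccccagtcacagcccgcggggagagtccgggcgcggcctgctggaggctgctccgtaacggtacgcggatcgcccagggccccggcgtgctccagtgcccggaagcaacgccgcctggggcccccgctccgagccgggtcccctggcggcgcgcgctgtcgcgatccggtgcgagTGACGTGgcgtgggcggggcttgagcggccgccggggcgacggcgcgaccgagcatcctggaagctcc
Slc17a1: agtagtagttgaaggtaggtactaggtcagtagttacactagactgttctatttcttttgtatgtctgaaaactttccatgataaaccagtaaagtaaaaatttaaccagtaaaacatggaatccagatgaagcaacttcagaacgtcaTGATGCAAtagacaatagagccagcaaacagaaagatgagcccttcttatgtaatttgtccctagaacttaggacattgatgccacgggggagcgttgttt
Slc7a6 has another listed start, and the match ran from 68 to 62 bases before the start used here, and in Slc17a1 from 101 to 94 bases before it. In Slc30a5 the match to TGACGTG lay at bases 7 to 13 after the start. The STAT6 spacing, TTC and GAA with 4 bases between them, lay in 6.95% of all windows and in 5.21% of the carriers' windows. It was found in 9 of the carriers, Slc30a5 among them. TGCACNC, a core of the metal response element, lay in 12.6% of all windows and in 15.1% of the carriers' windows. It was found in 27 of the carriers. A match is a description of these letters and not of binding.

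As a set, the solute carriers moved little and without a common direction. Their median averaged log2 ratio over the 4 arrays was 0.01, beside -0.01 for all 9153 named genes, with 97 members above and 85 below 0. The median size of the averaged ratio was 0.18 among the carriers and 0.22 among all genes, and the median SD over the 4 arrays was 0.38 and 0.35. The members' median was 0.02 for particle-free air and 0.04 for UCP air. None of the 182 passed limma's test over all genes (Benjamini-Hochberg adjusted p under 0.05) in the averaged effect, where 0.0656% of all genes were called higher and 0.0328% lower. Slc26a4, the carrier left out because it helped to settle the direction, is among the genes called higher (limma adjusted p = 0.0491). The smallest adjusted p of a member was 0.13, for Slc4a1. At an unadjusted p under 0.05 there were 17 members higher and 10 lower, or 9.34% and 5.49%, beside 8.06% and 7.56% of all genes, so the members' shares lay near the background. With 4 arrays an exact sign-flip test of a single gene cannot go below p = 0.125 (two-sided).

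The signs of the 4 ratios show the same in another way. All 4 were above 0 for 21 members (11.5%) and below 0 for 17 (9.34%), where the shares of all genes were 14.2% and 14.1%. The sign followed the dye, opposite between the Cy5 and the Cy3 arrays, for 30 members (16.5%, beside 11.7% of all genes). It followed the air for 15 members (8.24%, beside 7.7%). For 89 members (48.9%, beside 44% of all genes) 1 array had the other sign, and the remaining 10 split crosswise (5.49%, beside 8.01%). At least 1.5-fold on all 4 arrays, 1 member was higher and none lower, where 1.16% and 1.02% of all genes were.

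**Figure D1:**
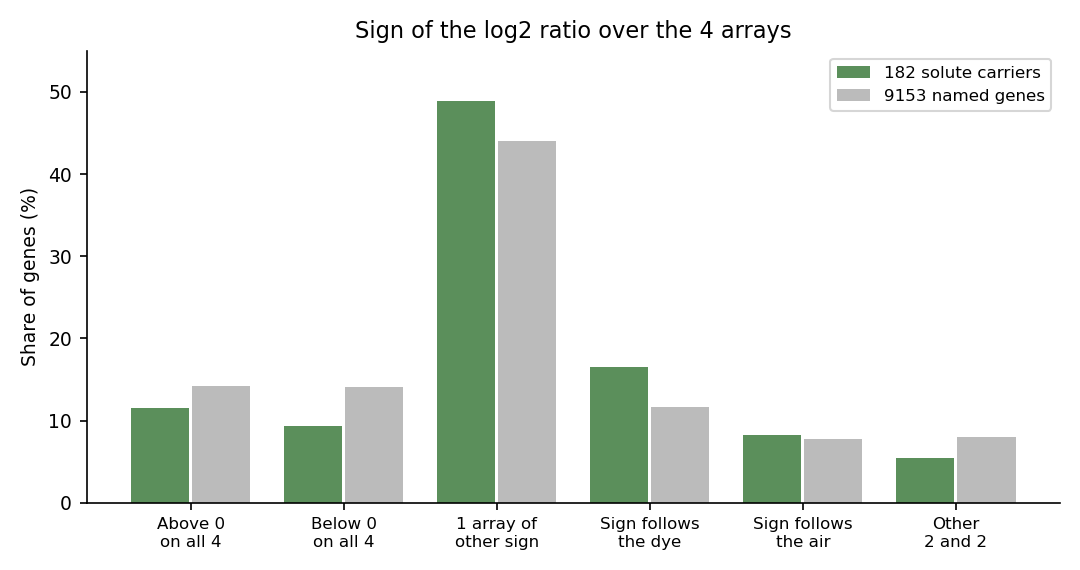
Share of genes (%) by the sign pattern of their log2 ratio over the 4 arrays, for 182 solute carriers (green bars) and all 9153 named genes (grey bars). The carriers have the lower share where all 4 arrays have the same sign (11.5% and 9.34%, beside 14.2% and 14.1%) and the higher share where the sign follows the dye (16.5% beside 11.7%).

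The member at least 1.5-fold higher on all 4 arrays was Slc17a1, an organic anion and urate carrier known from kidney and liver. Its log2 ratios were 1.36, 0.80, 0.88 and 0.71, with a mean of 0.94 ± 0.29 (SD, n = 4), a 1.92-fold higher level, and limma's adjusted p was 0.138. Every array was high and the airs overlapped. Its neighbour in the family, Slc17a7, which loads glutamate into vesicles, gave 0.54, 0.01, -1.23 and -1.0. Slc17a7 was thus above 0 on both particle-free arrays and below 0 on both UCP arrays (difference of UCP minus particle-free air -1.39, adjusted p = 0.979).

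Of the 10 members with the highest mean, 5 were above 0 on all 4 arrays: Slc7a6, Slc17a1, Slc30a5, Slc39a7 and Slc39a14. Of the other members of the 10, the means of Slc3a2 and Slc30a3 rested on array 2 of UCP air, at 3.82 and 5.12 there. Slc27a2 reached 2.73 on array 2 of particle-free air and -1.38 on array 1 of UCP air. Slc36a4, an amino acid carrier, was at 2.36 on array 1 of UCP air and at -0.02 on array 2 of particle-free air. Among the 10 lowest, 5 were below 0 on all 4 arrays: Slc4a1, Slc16a11, Slc9a2, Slc6a4 and Slc25a16. The others owed their place to a single array or air. Over all members, 50 changed the sign of their mean once the array with the largest value was left out.

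**Figure D2:**
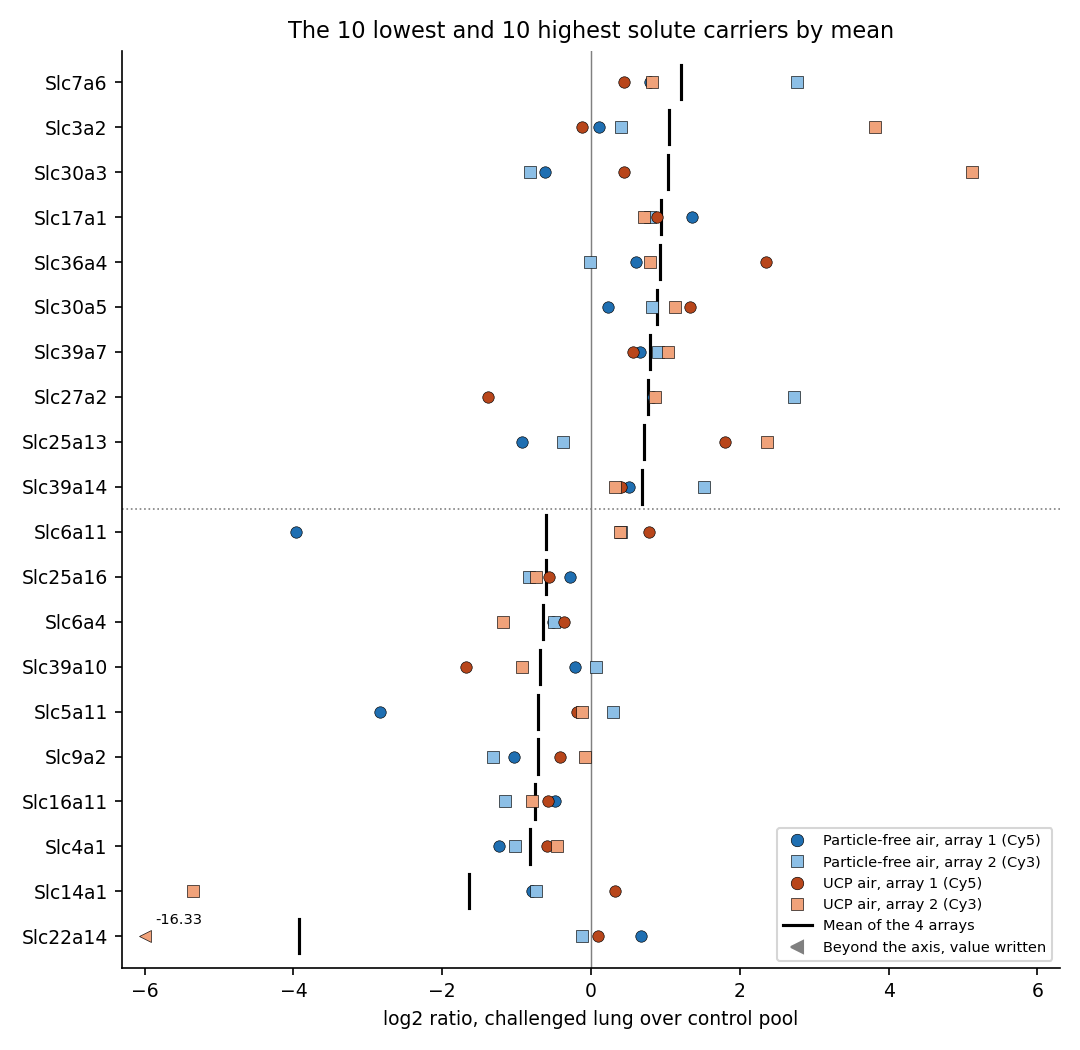
Log2 ratio of challenged lung over control pool for the 10 lowest and 10 highest solute carriers, with 1 symbol per array (blue for particle-free air, orange for UCP air, circles for Cy5 and squares for Cy3) and a black bar at the mean of the 4 arrays. The points of Slc17a1, Slc39a7, Slc4a1 and Slc16a11 lie together on 1 side of 0, while the means of Slc3a2, Slc30a3, Slc14a1 and Slc22a14 are set by array 2 of UCP air.

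The lowest mean belonged to Slc22a14, of the organic cation family, and comes from a value at the limit of the scale. Its ratios were 0.67, -0.12, 0.10 and -16.33, and the last is the capped value that 58 probes share on array 2 of UCP air. A capped value only bounds the ratio, and without that array the average of both airs was 0.19. Slc14a1, the urea carrier of red cells and kidney, had the same cap on 1 of its 3 probes, and its averages were -0.79, -0.73, 0.32 and -5.35. With that probe left out its mean was -0.29. No other member held a capped value.

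Amino acid and peptide carriers were the largest class, with 31 members. Their median was 0.10, with 21 above and 10 below 0, 5 above 0 on all 4 arrays and 3 below. The highest of them, and of the whole set, was Slc7a6, a light subunit that exchanges arginine for glutamine and sodium. Its gene averages were 0.79, 2.77, 0.45 and 0.83, with a mean of 1.21 ± 1.06 (SD, n = 4, limma adjusted p = 0.26). All 4 arrays were above 0, and array 2 of particle-free air stood apart from the others. The 2 probes of Slc7a6 disagreed. One gave 1.71, 6.36, 1.24 and 1.41, and the other gave -0.13, -0.82, -0.34 and 0.25. Their means of 2.68 and -0.26 differed by 2.94 (the largest such gap after Slc14a1), so the gene's average describes neither. Only 6 of the 42 members with several probes had probes whose means differed by more than 1.

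The partners of Slc7a6 gave no common picture. Slc3a2, the heavy subunit that carries Slc7a5, Slc7a6, Slc7a7 and Slc7a8 to the cell surface, was at 0.10, 0.40, -0.12 and 3.82, and its mean of 1.05 ± 1.86 fell to 0.13 without the highest array. Slc7a8, which carries large neutral amino acids, was above 0 on every array, at 0.86, 0.43, 0.52 and 0.35 (0.54 ± 0.22, SD, n = 4, limma adjusted p = 0.236). Slc7a7, the arginine exchanger of macrophages and epithelium, gave 0.59, -0.06, 0.32 and 0.61. Slc7a5, the carrier of leucine and other large amino acids in dividing cells, ran from -2.46 on array 2 of particle-free air to 1.16 on array 2 of UCP air. The arginine carrier Slc7a1 lay near 0 throughout, at 0.06, 0.41, -0.36 and 0.05, and Slc7a4 and the kidney heavy subunit Slc3a1 had means of 0.07 and 0.01. Slc7a10, a carrier of small neutral amino acids found in fat and brain, was below 0 on every array, at -0.20, -0.76, -0.52 and -0.12.

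Among the sodium-coupled glutamine carriers of family 38, the liver-associated Slc38a3 lay at 1.22 and 0.85 in particle-free air and at 0.26 and -0.17 in UCP air, with no overlap between the airs. UCP air lay lower without overlap for 12.6% of the members and 15.4% of all genes. The difference for Slc38a3 had a limma adjusted p of 0.979. Slc38a2, which responds to amino acid shortage in many cells, had the lowest mean of the class at -0.50 ± 0.91, with -1.76 on array 2 of UCP air. Of 18 measured genes of the amino acid stress response (of 20 listed), none passed the test, 10 lay above and 8 below 0, and their median was 0.02. Its highest were Psat1, a serine synthesis enzyme, at 1.32 ± 1.97 and Mthfd2 at 0.88 ± 0.71, and its lowest Vegfa at -1.45 ± 0.37 and Sesn2 at -1.08 ± 1.36 (SD, n = 4 each). Of 11 measured enzymes of arginine and polyamine metabolism (of 18 listed), none passed, and the median was 0.09. Arg1, which splits arginine into ornithine and urea, lay at 1.39 ± 0.18 and is a gene used for the overall sign. The next highest was Azin1 at 0.44 ± 0.73, and the lowest were Asl at -0.31 ± 0.68 and Smox at -0.24 ± 0.55.

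Metal carriers numbered 20, with a median of 0.10, and 13 of them lay above and 7 below 0. In this class 4 members were above 0 on all 4 arrays and none below, where the shares of all genes were 14.2% and 14.1%. Those 4 are all zinc carriers, and the zinc families 30 and 39 supply 6 and 8 of the 20 members. Slc39a7, which releases zinc from the endoplasmic reticulum into the cytosol, gave 0.66, 0.90, 0.56 and 1.03 (0.79 ± 0.22, SD, n = 4, limma adjusted p = 0.157). Its values lay close together in both airs, with means of 0.78 and 0.80, and its 2 probes had means of 0.94 and 0.64. Slc30a5, which loads zinc into the secretory pathway, gave 0.23, 0.82, 1.34 and 1.13 (0.88 ± 0.48, SD, n = 4, limma adjusted p = 0.149). The UCP arrays lay above the particle-free arrays for this gene, by 0.71 (adjusted p = 0.979). Slc39a14, an importer of zinc, iron and manganese that the liver raises in the acute phase, gave 0.51, 1.52, 0.40 and 0.32, and Slc39a4, the importer of the gut, gave 0.23, 0.37, 0.29 and 0.87.

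The other zinc carriers spread to both sides of 0. Slc39a10, an importer of the plasma membrane, lay at -0.22 and 0.07 in particle-free air but at -1.68 and -0.92 with UCP, and its 3 probes had means from -1.54 to 0.06. The low averages of Slc39a10 with UCP came mainly from a different probe on each array. On UCP arrays 1 and 2 one probe gave -4.56 and 0.22, another 0.05 and -2.04, and the third -0.525 and -0.943. Slc39a6 ran from 0.71 to -1.28 within particle-free air. Slc39a3 and Slc39a11 had means of -0.36 and -0.18. Slc39a13, which moves zinc out of Golgi vesicles, had a mean of 0.27, but 1 of its 2 probes was between 0.82 and 1.21 on all arrays while the other ran from -1.15 to 0.25. Slc30a3, the zinc carrier of synaptic vesicles, gave -0.62, -0.82, 0.44 and 5.12. Slc30a2, Slc30a6, Slc30a1 and Slc30a9 had means of 0.15, 0.18, -0.07 and -0.12, each smaller than its SD over the arrays. Slc11a2, the iron importer of endosomes, was at 0.07 ± 0.29, with 3 probes between -0.36 and 0.36.

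**Figure D3:**
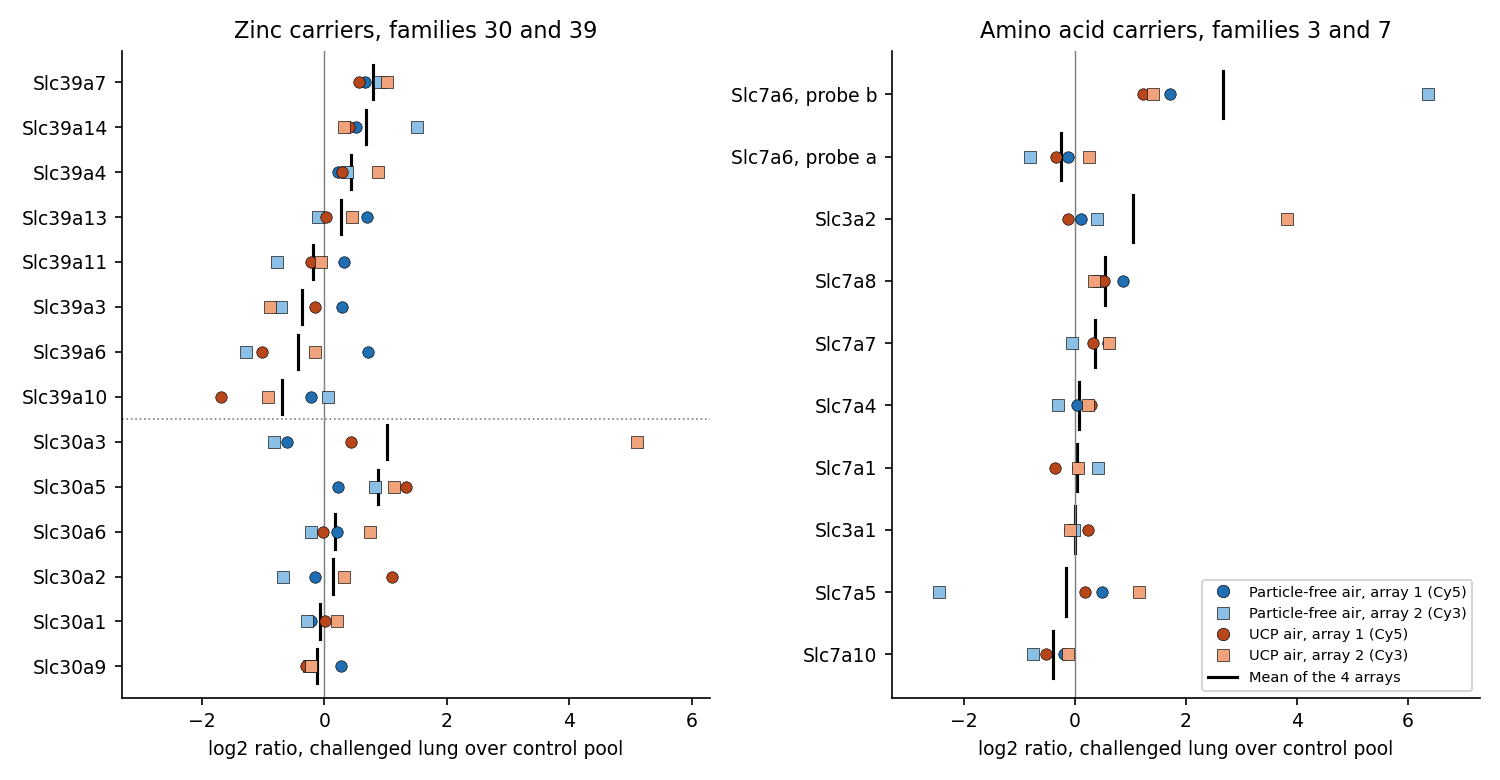
Log2 ratio of challenged lung over control pool by array for the zinc carriers of families 30 and 39 (left) and the amino acid carriers of families 3 and 7 (right), with a black bar at the mean of the 4 arrays and the 2 probes of Slc7a6 drawn apart. Slc39a7 lies between 0.56 and 1.03 on all arrays, and the 2 probes of Slc7a6 have means of 2.68 and -0.26.

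Other genes of metal handling were read beside the carriers. Of 18 measured (of 23 listed), none passed, 8 lay above and 10 below 0, and 6 were above 0 on all 4 arrays. Lcn2, a siderophore-binding protein of neutrophils and epithelium, was highest at 1.64 ± 0.49, followed by the iron hormone Hamp at 0.90 ± 1.11. The lowest were the iron carrier protein Trf at -1.69 and the ferritin receptor Ncoa4 at -1.16 ± 0.55 (SD, n = 4 each for Lcn2, Hamp and Ncoa4). Trf owes its place to the capped value of 1 of its 2 probes on array 2 of UCP air, which only bounds the ratio. With that probe left out Trf lay at -0.02 and the median of the list moved from -0.07 to -0.05, an alternative chosen after the data were seen.

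Carriers of acids, bases and chloride had the lowest median of the classes with at least 4 members, at -0.18, with 4 above and 13 below 0. In this class of 17, 4 members were below 0 on all 4 arrays and none above, where the shares of all genes were 14.1% and 14.2%. Slc26a11 and Slc9a9, named only for this count, reached it narrowly, with a value of -0.014 and -0.0035 on 1 array each. The 2 probes of Slc9a9 had means of 0.18 and -0.91. Slc4a1, the chloride-bicarbonate exchanger known as band 3 of red cells, gave -1.24, -1.03, -0.59 and -0.45 (-0.83 ± 0.37, SD, n = 4). Both airs were low, and the particle-free arrays lay below the UCP arrays (limma adjusted p of the difference 0.979). Of the 6 red cell markers listed, 2 were measured: the globin gene Hba-a1 at -0.73, -0.88, -0.62 and -0.06, and the heme enzyme Alas2 at -0.28, -0.50, -0.43 and 0.16. The part of red cells in the value of Slc4a1 was not tested. Slc9a2, a sodium-proton exchanger of epithelium, gave -1.03, -1.32, -0.42 and -0.08, so that particle-free air was lower here too (difference 0.92, adjusted p = 0.979). The highest of the class was the potassium-chloride carrier Slc12a5 of neurons, at 0.02, 0.96, 0.65 and -0.14.

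Among other genes of ion and water transport, channels and aquaporins had a median of -0.12 over 16 measured genes (of 25 listed), with none past the test. The water channel Aqp1 of lung endothelium lay at -0.93 ± 0.24 and the epithelial sodium channel subunit Scnn1a at -0.73 ± 0.57, while the chloride channel Ano1 lay at 0.56 ± 0.29 and Clcn5 at 0.29 ± 0.68 (SD, n = 4 each). Sodium pump genes, which keep the gradient that many carriers use, had a median of 0.38 over 7 measured genes (of 14 listed), with Fxyd4 at 0.99 ± 0.77 and Atp1b2 at 0.75 ± 0.57 as the highest and Fxyd1 at -0.52 ± 0.55 and Atp1b1 at -0.16 ± 0.07 as the lowest. Proton pump genes of endosomes and lysosomes had a median of 0.10 over 15 (of 19 listed), 13 of them above 0, with Atp6ap1 at 0.77 ± 0.30 and Atp6v1b2 at 0.71 ± 0.24 highest and Atp6v1d at -0.32 ± 0.88 and Atp6v0b at -0.26 ± 0.36 lowest. ABC transporters, which pump with ATP, had a median of 0.00 over 12 (of 29 listed), from Abcd3 at 1.13 ± 1.60 and Abcc6 at 0.41 ± 1.57 to Abcc1 at -0.22 ± 0.12 and Abcb10 at -0.41 ± 0.70. Regulators and partners of carriers had a median of 0.09 over 12 (of 19 listed), from Emb at 0.31 ± 0.44 and Slc9a3r1 at 0.19 ± 0.34 to Nedd4l at -0.12 ± 0.38 and Wnk1 at -0.40 ± 0.15. None of the genes in these 4 lists passed the test.

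Sugar carriers, 18 genes, had a median of 0.04. Slc5a1, the sodium-glucose carrier of epithelium, was above 0 on every array at 0.13, 0.73, 0.61 and 1.02 (0.62 ± 0.37, SD, n = 4, limma adjusted p = 0.244). Slc5a11, an inositol carrier, had the lowest mean of the class, at -0.71, from a single array at -2.83. In the glucose family 2, Slc2a3, the high-affinity glucose carrier of neurons and leukocytes, was below 0 on every array at -0.74, -0.71, -0.37 and -0.06 (limma adjusted p = 0.252). Slc2a12 was above 0 on every array, with a mean of 0.20 ± 0.14. The fructose carrier Slc2a5, Slc2a6, Slc2a8 and the urate carrier Slc2a9 had means between -0.04 and 0.06, and the liver glucose carrier Slc2a2 had a mean of -0.31 ± 0.73. Of 14 measured genes of glycolysis and lactate (of 20 listed), none passed the test, and the median was -0.09. The lowest were the muscle enzymes Eno3 at -1.15 ± 0.46 and Pfkm at -0.94 ± 0.64, and the highest Pfkl at 0.45 ± 0.58 and Pkm at 0.21 ± 0.50.

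The remaining classes lay between these. Carboxylate carriers, 10 genes, had a median of -0.14, and the lowest of them was Slc16a11, of the monocarboxylate family, at -0.49, -1.16, -0.57 and -0.80 (-0.75 ± 0.30, SD, n = 4, limma adjusted p = 0.198), with Slc16a6 highest at 0.17. Bile acid and organic ion carriers, 19 genes, had a median of -0.09, and Slco5a1 was highest at 0.33 with a sign that followed the dye. Carriers of neurotransmitters and osmolytes, 16 genes, had a median of 0.08. Classes were assigned by family number, so this class also holds the organic anion carrier Slc17a1, its highest member. Slc6a4, the serotonin carrier that lung endothelium uses to clear serotonin from blood, was below 0 on every array at -0.52, -0.49, -0.36 and -1.19 (limma adjusted p = 0.255). Slc6a11, which takes up GABA, gave -3.97, 0.40, 0.77 and 0.39, so that its mean of -0.60 came from 1 array. Slc23a4, of the ascorbate family, lay at 0.81 and 1.26 in particle-free air but at 0.10 and -0.12 with UCP. Lipid and choline carriers, 7 genes, had a median of 0.08, with the fatty acid protein Slc27a1 lowest at -0.22. Phosphate carriers (4 genes, median 0.04) reached from Slc34a1, the phosphate carrier family of kidney, at -0.38 to Slc20a1 at 0.16. Nucleotide sugar carriers (5 genes, median -0.02) reached from Slc35a5 at -0.15 to the sialic acid carrier Slc35a1, at 0.22 ± 0.07 and above 0 on every array.

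**Figure D4:**
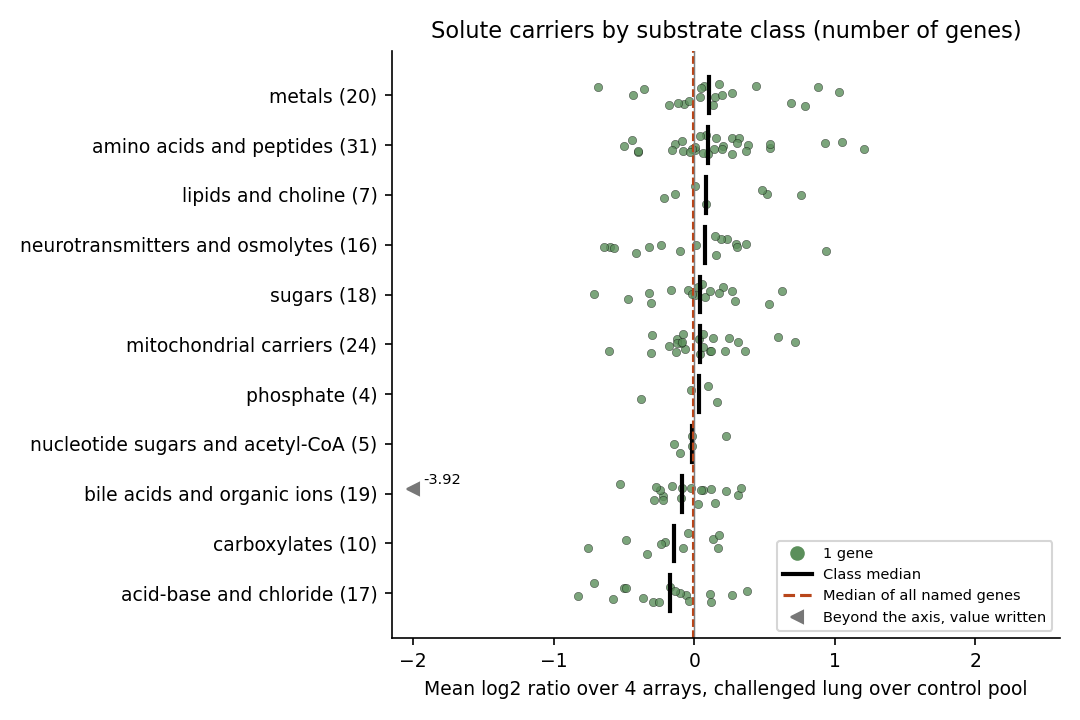
Mean log2 ratio over the 4 arrays of each solute carrier (points) in the 11 substrate classes with at least 4 members, with the class median as a black bar and the median of all named genes as a dashed line. Class medians run from -0.18 for acid-base and chloride carriers to 0.10 for metal and amino acid carriers, and the spread of genes within each class is wider than that range.

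Mitochondrial carriers of family 25 numbered 24, the largest single family, with a median of 0.04, 13 members above and 11 below 0. Slc25a13, the aspartate-glutamate carrier citrin, had the lowest adjusted p of any member in UCP air and in the difference between the airs. Its ratios were -0.92 and -0.37 in particle-free air and 1.80 and 2.37 in UCP air. Both UCP arrays were high and both particle-free arrays low, a difference of 2.73 (limma adjusted p = 0.509). Slc25a11, the oxoglutarate carrier, ran from 2.43 on array 2 of particle-free air to -1.50 on array 1 of UCP air. Slc25a16 was below 0 on every array, at -0.29, -0.84, -0.56 and -0.73 (limma adjusted p = 0.226).

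The airs were then compared directly. Limma called none of the 182 members in particle-free air, in UCP air or in UCP minus particle-free air, where it called 0.0109% of all genes higher in particle-free air, 0.0109% higher and 0.0109% lower in UCP air, and 0% in the difference. At an unadjusted p under 0.05 particle-free air held 9 members higher and 9 lower (4.95% each, beside 5.58% and 5.7% of all genes). UCP air held 10 higher and 7 lower (5.49% and 3.85%, beside 4.45% and 4.93%). At the same threshold the difference held 5 members higher and 4 lower in UCP air (2.75% and 2.2%, beside 1.79% and 2.15% of all genes). The 2 arrays of UCP air lay above both arrays of particle-free air for 35 members (19.2%, beside 16.9% of all genes) and below them for 23 (12.6%, beside 15.4%). At least 1.5-fold on both arrays of particle-free air, 8 members were higher and 6 lower (4.4% and 3.3%, beside 3.73% and 3.58% of all genes). On both arrays of UCP air 7 were higher and 2 lower (3.85% and 1.1%, beside 2.93% and 3.82%). Slc17a1 was the member in both lists of higher genes, and the 2 lower in UCP air were Slc17a7 and Slc39a10. For Slc39a10 the average was set mainly by a different probe on each UCP array.

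**Figure D5:**
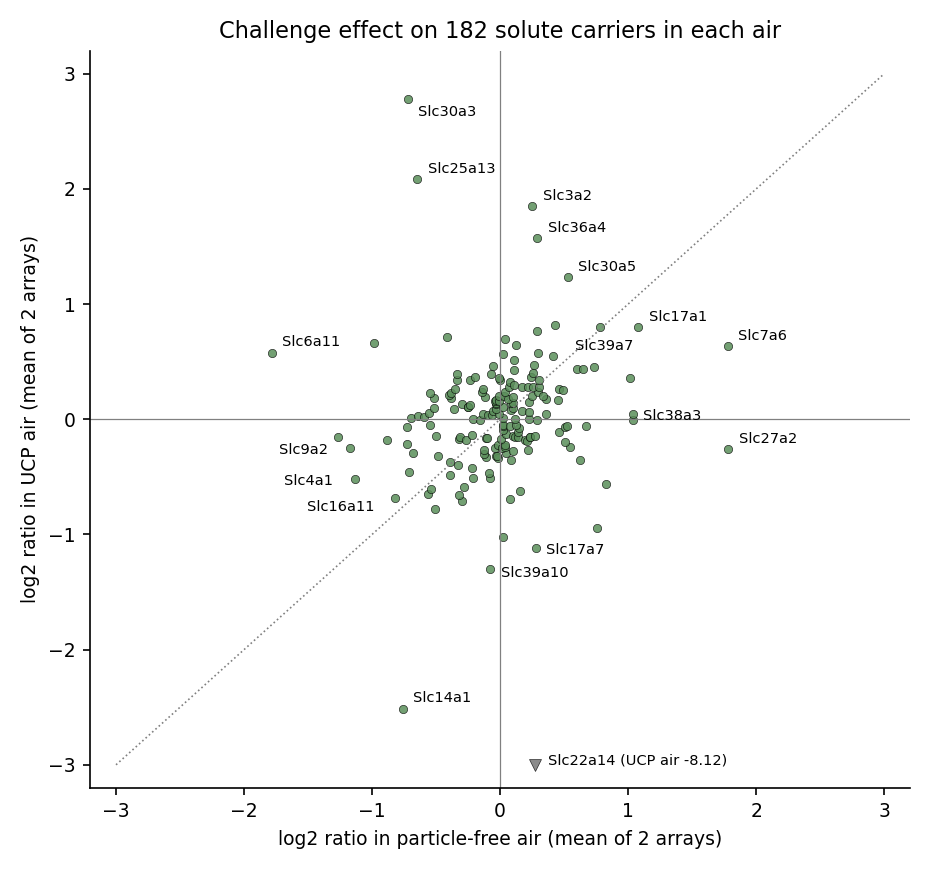
Log2 ratio of each of the 182 solute carriers in particle-free air (horizontal axis, mean of 2 arrays) against UCP air (vertical axis, mean of 2 arrays), with equal ratios on the dotted line and Slc22a14 drawn at the edge because its UCP value of -8.12 holds a capped ratio. Slc25a13 lies at -0.65 and 2.08 and Slc17a1 at 1.08 and 0.80.

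Transcripts of other tissues were read in the same RNA, and none of them passed the test of the difference between the airs. Of 12 liver markers 11 were measured, with a median of 2.97 under particle-free air against 0.37 under UCP air, and 6 of them were above 0 on all 4 arrays. Averaged over the airs, the highest were Alb at 2.37 ± 2.64 and Hpx at 2.25 ± 1.66, and the lowest Cps1 at 0.16 ± 0.20 (SD, n = 4 each) and Trf with its capped probe. Of 13 heart and striated muscle markers 10 were measured, with medians of 0.01 and -2.49, and of 10 fat markers 8, with medians of -0.96 and -1.66. The lowest heart markers were Nppa at -2.85 ± 3.43 and Myl4 at -1.75 ± 1.15, and the highest Actc1 at 0.17 ± 0.62 and Ckm at -0.20 ± 0.59 (SD, n = 4 each). The lowest fat markers were Gpd1 at -2.48 ± 0.91 and Car3 at -2.03 ± 0.49, and the highest Cidec at -0.47 ± 0.65 and Lpl at -0.69 ± 0.48 (SD, n = 4 each). Limma called Nppa, Gpd1 and Car3 lower in the averaged effect. The ratios of Nppa were 0.38, -0.17, -5.72 and -5.91, so its low mean came from UCP air. Nppa was also called lower by limma in UCP air alone (adjusted p = 0.0282), but not in particle-free air (adjusted p = 0.896). In the difference between the airs the smallest adjusted p of these genes was 0.234, for Nppa. Among the solute carriers themselves, 8 known mainly from liver were measured (of 18 listed) and had medians of 0.09 under particle-free air against 0.03 under UCP air, 4 above and 4 below 0. Slc17a1, known from kidney and liver, was not on that list. Of these 8, the UCP mean was below the particle-free mean for 5 and above it for 3. Slc38a3 and the fatty acid carrier Slc27a2 had particle-free means of 1.04 and 1.78, beside 0.05 and -0.26 for UCP (limma adjusted p of the difference 0.979 each). For Slc27a2 the airs overlapped, as array 2 of UCP air (0.86) lay above array 1 of particle-free air (0.83). The bile acid enzyme Slc27a5 was above 0 on all 4 arrays, with means of 0.60 and 0.43. The citrate carrier Slc13a5 and the organic anion carrier Slc22a7 had higher means with UCP, by 0.71 and 0.61 (limma adjusted p = 0.979 each). In both genes the airs overlapped. Slc13a5 gave -1.97, 0.59, -0.16 and 0.19, and Slc22a7 gave 0.29, -1.08, 0.44 and -0.01. The choice of Slc27a5 and Slc22a7 was made once their values had been seen. The 3 measured carriers known mainly from fat had means of -0.40 (Slc7a10), -0.22 (Slc27a1) and -0.14 (Slc36a2), and the 4 from red cells had a median of -0.70, with Slc25a39 at 0.31. Without the capped probe of Slc14a1 that median was -0.43, also an alternative chosen after the data were seen. The part of these tissues in the values of single carriers was not tested. Of 10 macrophage markers 6 were measured, with a median of 1.82, from Ctsk at 2.61 ± 0.49 and Ctss at 2.27 ± 0.36 down to Lyz2 at -0.34 ± 0.33 and Marco at -0.36 ± 0.36. Of 10 lung epithelium markers 6 were measured, with a median of -0.08, from Abca3 and Sftpc, both at 0.07, to Sftpb at -0.88 ± 0.25 and Cyp2f2 at -1.29 ± 0.39 (SD, n = 4 each).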

How the data were processed

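Lung RNA of challenged mice and of pooled controls was hybridised on 4 dual-colour arrays. Per the labels' protocols, cDNA from 20 µg of RNA received its Cy3 or Cy5 dye by an indirect method. The values the authors deposited are log2 ratios of the channels, and no scanner, image software or normalization is given in the sources used here. On each array the largest values lay on a plateau (25, 44, 20 and 58 probes) that equals a ratio capped at 100000, shifted by a constant per array. Its sign was positive for Cy5 and negative for Cy3, hence the deposited log2 values already run the same way. Array medians were -0.01, -0.07, -0.02 and 0.02. Brightness was not analysed here, so dim probes were not filtered, and precision is limited by how many arrays there are.

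Of 20205 probes, 13852 had 1 gene symbol in the platform annotation, 0 had several and 6353 had none. Probes with a value on all 4 arrays were averaged by gene (12532 probes, 9153 genes), without further centring. All 182 members were found in the given gene table, under the same symbol. Limma 3.58.1 (R 4.3.3) was fitted with 1 coefficient per air on all genes, with 2 residual and 2.37 prior degrees of freedom, and tested two-sided each air, their average and their difference. Adjustment was Benjamini-Hochberg, over all genes. The fit was tested on simulated data.

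Members and lists were chosen with earlier results of these data known. Named members were those past the test or 1.5-fold on all 4 arrays, the 10 highest and lowest by mean, the 5 highest and lowest in each air and in the difference, the extremes of each substrate class with at least 4 members, families 2, 3, 7, 11, 30, 39 and 40 (which had no measured member), and Slc7a6. Of each list of other genes the 2 highest and lowest were named. Family 66 was added to the classes once the symbols were known, among other carriers. Alternatives were centring, scaling, a replicate block, single probes, the median of probes, missing values, capped or disagreeing probes left out, arrays of an air averaged, each array left out, a 2-fold threshold and carriers of other tissues left out. List medians without capped probes were added after seeing the data.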

Additional observations from a re-analysis of the deposited data

Results flagged for a closer look

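For 6 of the named solute carriers both arrays of one air lay above 0 and both arrays of the other air below it. UCP minus particle-free air was 2.73 for Slc25a13 (limma adjusted p = 0.509), 3.50 for Slc30a3, of which 5.12 on array 2 of UCP air is the main part, 1.13 for Slc30a2, 0.73 for Slc2a6, 0.36 for Slc30a1 and -1.39 for Slc17a7, with an adjusted p of 0.979 for each gene after Slc25a13. None of these differences passed the test, and such a split by air was seen for 8.24% of the members and 7.7% of all genes.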

How the results depend on the processing

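In the test over all genes 0 members were called in each of the 4 comparisons under every alternative but 1: without array 1 of UCP air, Slc22a14 alone was called in the averaged effect (-8.03, adjusted p = 0.0163), in UCP air and in the difference, so that leaving out an array gave 0 to 1 calls in these 3 comparisons. That call rests on the capped value of array 2. The replicate number is also the dye orientation, and it pairs the arrays only by number: the deviations of same-numbered arrays correlated at 0.06 (Pearson) and 0.12 (Spearman) over genes. With the replicate block the smallest adjusted p of a member was 0.259 in the averaged effect, and the count of calls stayed at 0. Members at least 1.5-fold higher on all arrays numbered 1, beside 2 with arrays centred and scaled (Slc17a1 and Slc39a7), 4 by single probes (with Slc39a13 and Slc7a6), 3 once both arrays per air were averaged and 0 at 2-fold. Members lower numbered 0, and 2 once both arrays per air were averaged. Without 1 array the higher count ran from 1 to 5, the latter without array 1 of UCP air, and the lower from 0 to 1, with Slc14a1 without array 1 of UCP air and Slc4a1 without array 2. Centring moved the members' median in particle-free air from 0.02 to 0.0608, and leaving out an array gave averaged medians from 0.0061 to 0.0515. Of 58 named members, 35 kept the sign of their mean in the 12 to 13 settings that give a gene average, and 23 did not in at least 1, among them Slc22a14 and Slc30a3. Several settings cannot move that average: the replicate block, the averaging of arrays by air, and single probes, which were averaged again by gene. For a gene with 1 probe the median of probes cannot move it either. Signs turned almost only where an array was left out. None of the settings separates the probes of a gene. The gene average of Slc7a6 ran from 0.71 to 1.70, but its single probes had means of 2.68 and -0.26, and those of Slc39a13 had 1.09 and -0.56. Slc17a1 ran from 0.80 to 1.08. With 2 arrays per air a single array can set a mean, which limits every value here.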

Other observations

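Slc44a4, a choline-like carrier of epithelium, and Slc6a9, a glycine carrier of red cell precursors and brain, were chosen after their values were seen because their arrays lay close together. Slc44a4 gave 0.33, 0.51, 0.54 and 0.56 (0.48 ± 0.11, SD, n = 4), with no overlap of the airs. UCP air lay higher without overlap for 19.2% of the members and 16.9% of all genes. Slc6a9 gave -0.77, -0.30, -0.58 and -0.64 (-0.57 ± 0.20, SD, n = 4). Neither passed the test over all genes.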
